A study of Homo sapiens with 5 samples.

Results

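The effect of XAV939 after 5 days of neural induction was read from 2 libraries made from WA09, a line of human embryonic stem cells. Both cultures were grown in N2B27 medium with the dual SMAD inhibitors dorsomorphin and SB431542, which block BMP and activin/TGF-β receptors. D5_dSMADi received nothing further, and D5_XAV939 also received XAV939 at 10 μM from the start of differentiation. The question put by this comparison is what XAV939 adds to dual SMAD inhibition at the neural progenitor stage. Cells were dissociated with enzyme, each culture was tagged with its own oligonucleotide, and the 5 tagged cultures (D0, D5_dSMADi, D5_XAV939, D10_dSMADi and D10_XAV939) were run together on 10× Genomics droplets, with transcripts counted as unique molecular identifiers (UMIs). There was 1 culture and 1 library per condition, so no test between conditions was possible, and the condition, the culture and the tag cannot be told apart.

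Cells were chosen as barcodes with at least 10000 UMIs, at least 3000 genes and under 10% of UMIs from mitochondrially encoded genes. This kept 2423 of 2480 deposited barcodes of D5_dSMADi and 2830 of 2919 of D5_XAV939, or 5253 of the 11357 cells kept by the same limits over the tagged run, of 44007 barcodes deposited for the whole series. The kept cells held 80312042 and 89175639 UMIs, with medians of 28793 and 26673 UMIs and 5524 and 5410.0 genes per cell. No barcode was shared between the 2 libraries, and in every kept cell the tag of its own condition was the highest. The level of a gene is its UMIs summed over the kept cells of a library and scaled to a library total of 1000000 UMIs (CPM), and the ratio is D5_XAV939 over D5_dSMADi on the log2 scale. Intervals are exact 95% intervals (Poisson for CPM, binomial for ratios, Clopper-Pearson for shares of cells). They cover counting error only, not the variation between cultures. A sum over cells does not tell fewer cells of a type from less RNA per cell. Shares of cells are given beside the leading levels. At few UMIs per cell such a share also falls with the level, so it does not settle this either.

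Wnt proteins, which need the carrier WLS to leave the cell, bind Frizzled receptors and stop the destruction complex of AXIN, APC and kinases from degrading β-catenin, which then drives target genes with TCF/LEF factors. XAV939 inhibits the tankyrases TNKS and TNKS2, which mark AXIN for degradation, so AXIN accumulates and β-catenin falls. In the early neural plate low Wnt activity belongs to the anterior end and to the eye field. Wnt and BMP signals from the dorsal midline specify dorsal fates.

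The labelled stage was first checked against its markers. The pluripotency factor POU5F1 was at 1246 CPM in D0, at 26.5 CPM in D5_dSMADi and at 25.9 CPM in D5_XAV939, and NANOG, at 78.0 CPM in D0, was at 0.660 and 0.841 CPM. SOX2, kept in neural progenitors, was at 379 CPM in D0 and at 717 and 854 CPM at day 5. The summed neural progenitor list of 20 genes was at 1636 CPM in D0 and at 5078 and 5332 CPM at day 5. Cells with UMIs of at least 3 of its members were 99.5% of D0 cells and all cells of both day 5 libraries, so that share does not mark the stage. The 2 cultures were thus close in their exit from pluripotency, with a POU5F1 log2 ratio of -0.03 (95% interval -0.12 to 0.05). Of 10 pluripotency genes measured at 10 CPM or more 9 were within 1.5-fold, beside 7788 of 8179 over all genes. The exception was L1TD1, an RNA-binding protein of stem cells. It was at 105 CPM in D5_dSMADi and 179 CPM in D5_XAV939 against 1712 CPM in D0.

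Of the genes, 8179 reached 10 CPM in one or both libraries and were assessed. Of these 249 (3.04%) were at least 1.5-fold higher with XAV939 and 142 (1.74%) at least 1.5-fold lower. These shares are the background for every count of list members at this limit. Most genes differed little. The median log2 ratio was 0.05, and the 5th and 95th percentiles were -0.33 and 0.49. A ratio of 2-fold was reached by 50 genes in the higher and 45 in the lower direction, and one of 4-fold by 4 and 10 genes. None of 16 reference genes was past 1.5-fold, and the peptidyl-prolyl isomerase PPIG was at 264 CPM in D5_dSMADi and 279 CPM in D5_XAV939.

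**Figure D1:**
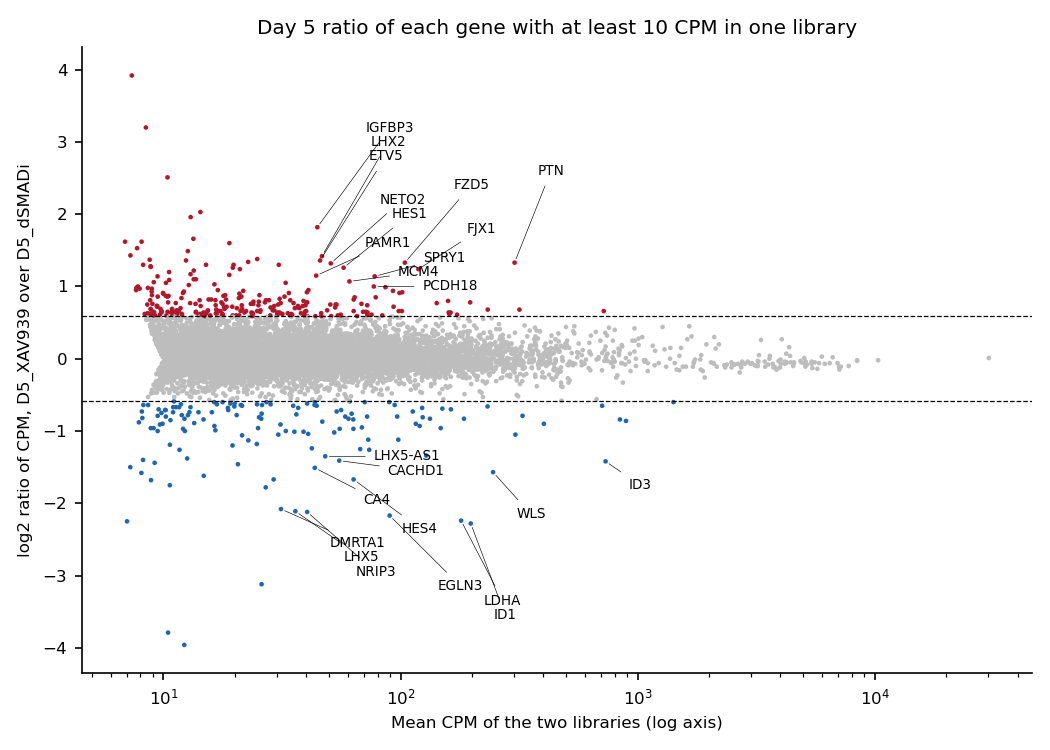
Each point is 1 of 8179 genes, with the mean CPM of the 2 day 5 libraries on a log axis against the log2 ratio of CPM, D5_XAV939 over D5_dSMADi; dashed lines mark 1.5-fold. Red points are the 249 genes past the line upward, blue points the 142 past it downward, and the 24 labelled genes are the 12 with the largest and the 12 with the smallest ratio at 50 CPM or more, from IGFBP3 at 1.82 to ID1 at -2.28.

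Among genes at 50 CPM or more, the largest ratio belonged to IGFBP3, a secreted binding protein of insulin-like growth factors, at 19.6 CPM in D5_dSMADi and 69.5 CPM in D5_XAV939 (3.54-fold higher, log2 ratio 1.82, 95% interval 1.74 to 1.90). Next in size were the eye field and cortical factor LHX2, the ERK-responsive factor ETV5, the growth factor PTN and the Wnt receptor FZD5. They were followed by NETO2, an auxiliary protein of kainate receptors, the Notch effector HES1, FJX1, PAMR1 and the ERK inhibitor SPRY1. Then came the replication helicase subunit MCM4 and the protocadherin PCDH18. The log2 ratios of these genes, from LHX2 to PCDH18, ran from 1.42 to 1.00. Of these PTN had the highest level, at 172 CPM without and 433 CPM with XAV939.

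In the other direction ID1, an inhibitor of bHLH factors that is induced by BMP, stood first at 328 CPM in D5_dSMADi and 67.3 CPM in D5_XAV939 (4.87-fold lower, log2 ratio -2.28, 95% interval -2.32 to -2.24). It was followed by the lactate dehydrogenase LDHA, the HIF prolyl hydroxylase EGLN3, NRIP3, the forebrain factors LHX5 and DMRTA1, the Notch target HES4, the Wnt carrier WLS, the carbonic anhydrase CA4, ID3, CACHD1 and the antisense transcript LHX5-AS1, with log2 ratios from -2.24 to -1.35. These 24 genes were taken by the size of their ratio, so the direction of their shares of cells, counted from the same UMIs, is no further evidence.

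Genes of 2 groups with different regulators are given with the sequence before their start. They are members past 1.5-fold whose sequence holds the letters searched, and not in each case those with the largest ratios. The first is LDHA (chr11:18394560-18408425, + strand) and PGK1 (chrX:77910739-78129295, + strand), glycolytic enzymes that the hypoxia-inducible factor HIF is known to drive through the letters ACGTG. The second is UHRF1 (chr19:4903080-4962154, + strand) and MCM6, genes of DNA replication with known control by E2F factors, for which TTTGGCGC and TTTCGCGC were searched. Gene positions are from GENCODE release 44 on GRCh38, and the printed sequences are the 250 bases before a start in RefSeq on GRCh38.p14, read 5′ to 3′ on the strand of the gene. Capitals mark the letters searched, on either strand. Only sequences with the letters are printed, so finding them here is no result. LDHA has 2 such starts and UHRF1 3, and the first by position with the letters is shown. MCM4, CLSPN and GINS2 had larger ratios than MCM6 and are not among the members with the E2F letters.
LDHA, chr11:18394313-18394562, + strand: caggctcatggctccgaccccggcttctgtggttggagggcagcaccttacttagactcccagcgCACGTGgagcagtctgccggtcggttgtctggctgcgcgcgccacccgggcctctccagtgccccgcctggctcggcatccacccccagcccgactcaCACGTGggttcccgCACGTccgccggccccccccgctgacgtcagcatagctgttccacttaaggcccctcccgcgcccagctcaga
PGK1, chrX:78103998-78104247, + strand: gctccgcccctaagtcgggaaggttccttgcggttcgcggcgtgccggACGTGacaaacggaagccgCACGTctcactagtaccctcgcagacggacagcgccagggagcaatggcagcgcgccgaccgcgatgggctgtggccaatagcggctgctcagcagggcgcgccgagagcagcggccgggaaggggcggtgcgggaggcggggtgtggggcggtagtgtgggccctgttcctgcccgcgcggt
UHRF1, chr19:4909894-4910143, + strand: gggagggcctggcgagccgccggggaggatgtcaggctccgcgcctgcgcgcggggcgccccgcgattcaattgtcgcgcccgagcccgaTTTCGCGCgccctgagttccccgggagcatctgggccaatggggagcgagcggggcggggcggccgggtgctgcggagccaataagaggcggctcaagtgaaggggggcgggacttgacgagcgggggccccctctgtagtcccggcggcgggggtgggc
MCM6, chr2:135876444-135876693, - strand: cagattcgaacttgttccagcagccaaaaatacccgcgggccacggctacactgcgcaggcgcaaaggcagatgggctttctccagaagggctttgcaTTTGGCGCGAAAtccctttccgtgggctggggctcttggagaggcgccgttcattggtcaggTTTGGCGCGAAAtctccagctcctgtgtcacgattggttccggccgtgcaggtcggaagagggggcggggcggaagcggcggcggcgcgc

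Among the genes of the machinery that XAV939 acts on, TNKS was at 52.6 CPM in D5_dSMADi and 54.7 CPM in D5_XAV939, and TNKS2 at 48.7 and 53.2 CPM. Of 18 genes of the destruction complex and its partners measured at 10 CPM or more, 17 stayed within 1.5-fold, as did 7788 of all 8179 genes, with a median log2 ratio of 0.00, AXIN1 at -0.18, APC at -0.04 and CTNNB1, which encodes β-catenin, at -0.02. The exception was CTNNBIP1, an inhibitor that keeps β-catenin from TCF/LEF factors, at 54.1 CPM without and 90.6 CPM with XAV939 (log2 ratio 0.74, 95% interval 0.69 to 0.80). These are transcript levels, and XAV939 acts on the AXIN protein, which was not measured.

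The classical target genes of β-catenin were hardly expressed at this stage. Of 22 listed targets 20 were under 10 CPM in both libraries. AXIN2, the target most used as a readout, was at 4.61 CPM in D5_dSMADi (370 UMIs) and 4.21 CPM in D5_XAV939 (375 UMIs), and its log2 ratio of -0.13 had an interval of -0.34 to 0.08 that holds 0. AXIN2 was at 6.99 CPM in D0. CCND1, the G1 cyclin, and MYC, the targets above 10 CPM, had log2 ratios of 0.17 and -0.05. When the limit was lowered to 1 CPM, a setting chosen after the data were seen, 13 targets could be assessed, of which NKD1 and APCDD1 were past 1.5-fold higher and MSX1 and MSX2 past it lower, around a median of -0.05. At this limit the share of all genes past 1.5-fold was 5.37% higher and 3.73% lower. NKD1, a feedback inhibitor of the pathway, was at 2.04 CPM without and 3.68 CPM with XAV939, and so higher with the inhibitor. MSX2, a dorsal midline factor that also responds to BMP, had 85 UMIs in D5_dSMADi and 3 in D5_XAV939 (log2 ratio -4.98, 95% interval -7.28 to -3.38).

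Of the genes for the secretion and receipt of Wnt proteins, WLS (chr1:68098473-68233120, - strand), the carrier, was at 6.90 CPM in D0, 367 CPM in D5_dSMADi and 124 CPM in D5_XAV939 (log2 ratio -1.57, 95% interval -1.60 to -1.54). After thinning to 10000 UMIs per cell, 94.3% of D5_dSMADi cells and 58.8% of D5_XAV939 cells held a WLS UMI, against 6.06% of D0 cells (99.5%, 81.1% and 33.4% before thinning). Both day 5 shares were above that of undifferentiated cells, and the share was lower with XAV939.

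Of the Wnt ligands only WNT5B and WNT7B reached 10 CPM. WNT7B was at 11.6 CPM in D5_dSMADi and 2.44 CPM in D5_XAV939 (log2 ratio -2.25, 95% interval -2.47 to -2.04), whereas WNT5B, which mainly signals without β-catenin, was at 63.7 and 53.7 CPM and within 1.5-fold. The dorsal midline ligand WNT1 had 41 UMIs without XAV939 and 2 with it. WNT5A moved the other way, from 31 to 160 UMIs (log2 ratio 2.22, 95% interval 1.65 to 2.82), and was at 1.79 CPM in D5_XAV939.

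Of the Frizzled receptors FZD5, FZD8 and FZD1 were higher with XAV939. FZD5 (chr2:207762598-207769906, - strand), a receptor known for its part in the eye field, was at 19.4 CPM in D0, 59.4 CPM in D5_dSMADi and 149 CPM in D5_XAV939 (log2 ratio 1.33, 95% interval 1.28 to 1.38). FZD8 was at 3.97 and 12.2 CPM, and FZD1, under 10 CPM in both libraries, at 1.73 and 4.33 CPM. FZD2, FZD3 and FZD7 had log2 ratios of -0.05, 0.06 and 0.35. In all, 2 of 10 measured receptors were past 1.5-fold higher and none lower, and the share of cells with an FZD5 UMI after thinning was 38.5% without and 72.2% with XAV939, against 14.9% in D0.

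The secreted modulators moved in both directions, with 1 of 8 measured members past 1.5-fold higher and 2 lower. RSPO2, a roof plate signal that stabilises Wnt receptors, had the smallest ratio of all 8179 genes, at 23.0 CPM in D5_dSMADi and 1.48 CPM in D5_XAV939 (log2 ratio -3.96, 95% interval -4.22 to -3.70). After thinning, 18.2% of D5_dSMADi cells held an RSPO2 UMI, and the 1.06% of D5_XAV939 cells (95% interval 0.716 to 1.51) stood beside 0.633% (0.255 to 1.30) of D0 cells. In CPM the D5_XAV939 level was above the 0.425 CPM of D0. Before thinning the shares were 38.9%, 3.92% and 2.90%. SHISA2, which retains Frizzled and FGF receptors inside the cell, was at 95.1 and 40.0 CPM, and FRZB, a secreted Wnt antagonist, at 57.6 and 115 CPM. The antagonists SFRP1 (1084 and 1229.6 CPM) and SFRP2 (543 and 515 CPM) had log2 ratios of 0.18 and -0.08.

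**Figure D2:**
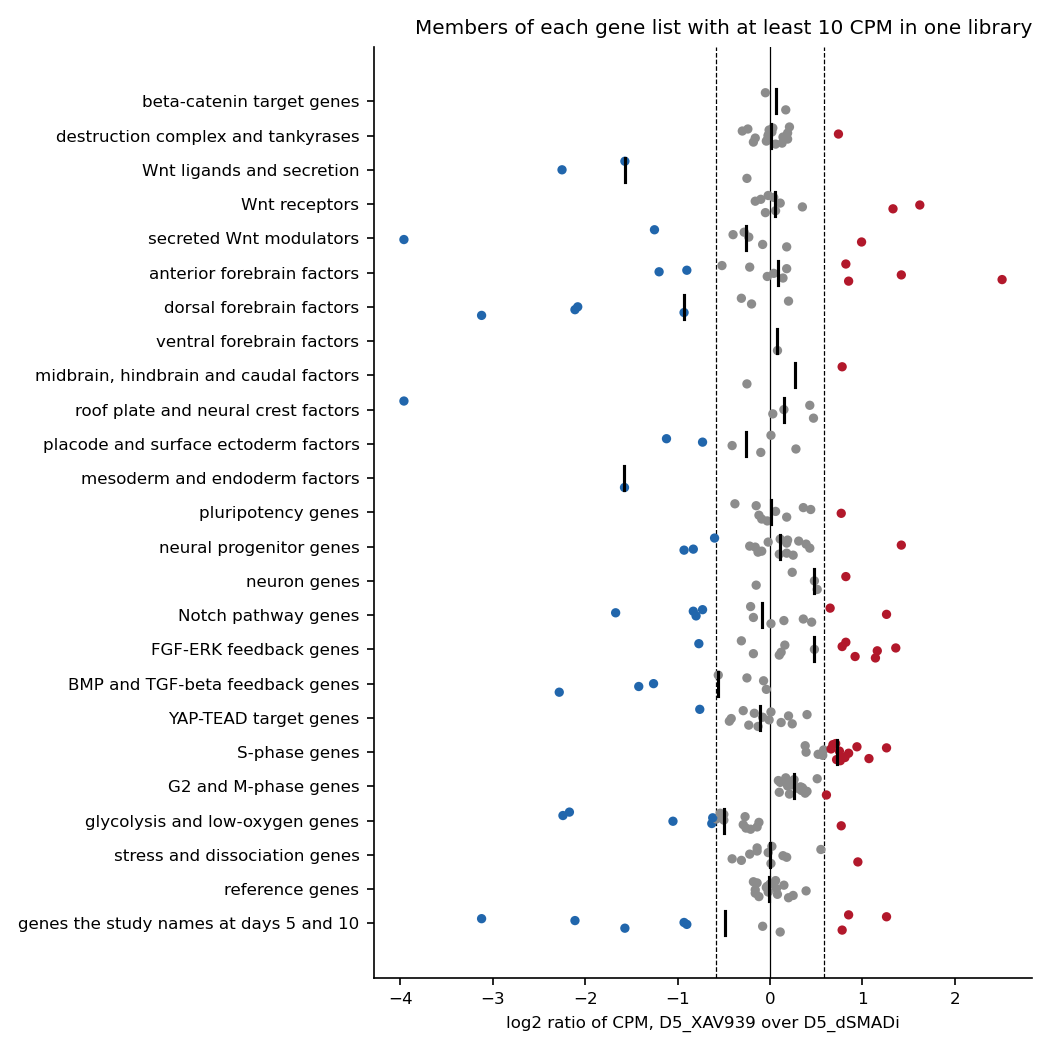
Each row is a gene list and each point a member that reached 10 CPM at day 5, at its log2 ratio of CPM, D5_XAV939 over D5_dSMADi; dashed lines mark 1.5-fold and the black bar is the list median. S-phase genes lie to the right (12 of 17 past 1.5-fold, red), 4 of 7 dorsal forebrain factors and 3 of 7 BMP and TGF-β feedback genes lie past the line to the left (blue), and reference genes stay between the lines.

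Anterior forebrain factors differed in both directions, with 4 of 12 measured members past 1.5-fold higher and 2 lower. SIX6 (chr14:60509146-60512850, + strand), a factor of the optic vesicle and hypothalamus, was at 3.10 CPM in D5_dSMADi and 17.7 CPM in D5_XAV939 (log2 ratio 2.51, 95% interval 2.32 to 2.71). LHX2 (chr9:124001670-124033301, + strand) was at 25.3 and 67.9 CPM, SIX3, which holds the forebrain against Wnt signals, at 45.7 and 82.3 CPM, and the anterior signal FGF8 at 13.3 and 23.4 CPM. These 4 genes, at 0.283 to 3.54 CPM in D0, were above that level in both day 5 cultures and higher with XAV939.

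In contrast, OTX1 was at 27.2 CPM without and 11.9 CPM with XAV939 and OTX2, a factor of fore- and midbrain, at 151 and 80.8 CPM (log2 ratio -0.90, 95% interval -0.94 to -0.86). The eye field gene RAX and the anterior neural ridge gene HESX1 stayed within 1.5-fold, at log2 ratios of 0.14 and -0.03. VAX1, a factor of the ventral anterior forebrain, had 15 UMIs without and 63 with XAV939. After thinning, 2.31% of D5_dSMADi cells and 13.6% of D5_XAV939 cells held a SIX6 UMI, against 0.271% in D0, and for LHX2 the shares were 21.4% and 47.8% against 4.16%. Before thinning they were 7.51%, 31.3% and 1.81% for SIX6 and 45.8%, 78.8% and 20.5% for LHX2.

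Dorsal forebrain factors were lower with XAV939 or within 1.5-fold. Of 7 measured members 4 were past 1.5-fold lower and none higher, with a median log2 ratio of -0.93 beside 0.05 over all genes. EMX2 (chr10:117542445-117549546, + strand), a factor of the dorsal telencephalon, was at 1.39 CPM in D0, 46.5 CPM in D5_dSMADi and 5.36 CPM in D5_XAV939 (log2 ratio -3.12, 95% interval -3.26 to -2.98). LHX5 was at 58.5 and 13.5 CPM, DMRTA1 at 50.6 CPM without XAV939 with a log2 ratio of -2.08, and PAX6, an early neuroectoderm and dorsal factor, at 158 and 82.7 CPM against 5.66 CPM in D0.

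The remaining measured members were NR2F1, NR2F2 and GLI3, whose log2 ratios were 0.20, -0.31 and -0.20. After thinning an EMX2 UMI was found in 33.4% of D5_dSMADi and 4.31% of D5_XAV939 cells against 1.45% in D0, and before thinning in 61.0%, 12.7% and 8.51%. At the limit of 1 CPM, 6 of 13 members were lower and 1 higher. LMX1A, a roof plate factor, had 145 UMIs without and 28 with XAV939, and the proneural factor NEUROG2 went the other way, from 26 to 146 UMIs. LHX5 lies beside LHX5-AS1 and EMX2 beside EMX2OS. Whether the counting used strand is not given in the sources used here, so it is not known whether reads of such pairs were told apart.

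Markers of other regions and of other cell types were scored in the same way. Among ventral forebrain factors the Hedgehog receptor PTCH1 was at 31.8 CPM in D5_dSMADi and 33.6 CPM in D5_XAV939, within 1.5-fold. Of the GABAergic genes GAD1 had 44 UMIs without and 12 with XAV939 (log2 ratio -2.03, 95% interval -3.08 to -1.08) and DLX2 had 23 and 4 (-2.67, -4.67 to -1.13), while DLX1 with 7 and 10 UMIs and GAD2 with 19 and 34 had intervals that hold 0. MEIS2 was the 1 of 2 measured midbrain, hindbrain and caudal factors past 1.5-fold higher, at 19.7 and 33.9 CPM. PAX2, a factor of the optic stalk and the midbrain-hindbrain boundary, had 21 UMIs without and 419 with XAV939 (log2 ratio 4.17, 95% interval 3.54 to 4.87), found after thinning in 0.289% and 4.59% of cells and in 0 of 1105 D0 cells, which allows up to 0.333% of cells with a UMI at this depth and sets no limit on cells that express the gene.

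Of roof plate and neural crest factors 1 of 5 measured members, RSPO2, was past 1.5-fold, lower, around a list median of 0.15. SOX9, BMP7 and ZIC5 were within 1.5-fold, at log2 ratios of 0.47, 0.43 and 0.15. At the limit of 1 CPM, 4 of 9 members were lower and none higher. The BMP ligand BMP4 of that list was at 2.45 and 0.639 CPM. Among placode and surface ectoderm genes the keratins KRT18 (140.5 and 84.6 CPM) and KRT19 (134 and 61.6 CPM) were lower, 2 of 6 measured, while the defining factors EYA1, GATA3 and TP63 stayed under 10 CPM. Cells with UMIs of at least 3 members of that list made up 52.0% of D5_dSMADi and 32.7% of D5_XAV939 cells after thinning, and 93.3% of undifferentiated D0 cells, where KRT18 was at 488 CPM, so this share does not mark placode or ectoderm. The only measured mesoderm and endoderm gene was CXCR4, a chemokine receptor also found on neural progenitors, at 12.1 and 4.04 CPM. The summed placode and surface ectoderm list was at 464 CPM without and 304 CPM with XAV939, with KRT8 (-0.41) and DACH1 (0.28) within 1.5-fold, and its part in the dorsal result was not tested.

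Of 18 measured neural progenitor genes LHX2 was past 1.5-fold higher and PAX6, HES5 and ZEB2 lower, and 14 were within it, beside 7788 of 8179 over all genes. ZEB2, a SMAD-binding repressor, was at 85.1 and 56.1 CPM. Of neuron genes MAP2, a microtubule protein, was the 1 of 5 past 1.5-fold, at 45.8 CPM without and 81.0 CPM with XAV939, and STMN2 was at 9.35 and 13.3 CPM, below its D0 level of 15.3 CPM. Cells with at least 3 neuron genes were 49.5% and 63.5% after thinning, and 72.4% in D0, in undifferentiated cells, so this share is read as background and not as neurons.

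The Notch pathway was split among its effectors. HES1 was at 33.8 CPM in D5_dSMADi and 81.2 CPM in D5_XAV939 (log2 ratio 1.26, 95% interval 1.20 to 1.33), while HES5, the usual Notch effector of neural progenitors, was at 170.1 and 96.0 CPM (-0.83, -0.87 to -0.79) and HES4 at 96.4 and 30.3 CPM (-1.67, -1.73 to -1.61). The ligand JAG1 was at 74.2 and 42.6 CPM, and LFNG, which modifies the receptors, at 67.1 and 40.4 CPM. In all 2 of 12 measured members, HES1 and the coactivator MAML3, were past 1.5-fold higher and 4 lower. HES5 was uneven among cells. An HES5 UMI was found after thinning in 56.1% and 42.2% of cells, where the same UMIs spread evenly would have reached 81.8% and 61.2%.

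FGF-ERK feedback genes, which read the activity of FGF receptors, were higher with XAV939 in 6 of 13 measured members and lower in 1, with a median log2 ratio of 0.48. ETV5 (chr3:186046314-186110318, - strand) was at 25.6 and 65.9 CPM (log2 ratio 1.36, 95% interval 1.29 to 1.43). The inhibitors SPRY1 and SPRY2 were at 48.5 and 107 CPM and at 27.8 and 52.7 CPM, the ERK phosphatase DUSP6 at 11.7 and 26.2 CPM, and the receptor antagonist IL17RD at 29.5 and 50.8 CPM. The ligand FGF8, described above, is the sixth. The receptor FGFR2 was the member past the line downward, at 45.8 and 26.9 CPM. The median cell had 5 UMIs of the list per 10000 in D5_dSMADi and 7 in D5_XAV939.

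BMP and TGF-β feedback genes were lower or within 1.5-fold, although both cultures had the same receptor inhibitors. Of 7 measured members ID1, ID3 and ID4 were past 1.5-fold lower. ID1 (chr20:31605283-31606515, + strand) was at 106 CPM in D0, ID3 at 1066 CPM in D5_dSMADi, 398 CPM in D5_XAV939 and 246 CPM in D0, and ID4 at 104 and 43.5 CPM. ID2 did not share this difference, at 111 and 108 CPM (log2 ratio -0.04, 95% interval -0.08 to 0.00). TGIF1, a SMAD corepressor, was at 181 and 122 CPM, just inside 1.5-fold.

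Summed over the list, D0 was at 783 CPM, D5_dSMADi at 1879 CPM and D5_XAV939 at 817 CPM, so in this sum the culture with XAV939 stood near the undifferentiated one. Single members departed from D0 both ways. In D5_XAV939 ID1 was below D0, at 67.3 against 106 CPM. ID3 (398 against 246 CPM) and ID4 (43.5 against 12.2 CPM) were above it. The median cell held 18 UMIs of the list per 10000 without and 8 with XAV939, and the 5th percentile of D5_dSMADi cells lay at 8. An ID1 UMI was found after thinning in 85.3% of D5_dSMADi, 38.3% of D5_XAV939 and 58.4% of D0 cells, and before thinning in 96.0%, 63.1% and 94.1%. The inhibitory SMAD7, at 1.98 and 1.14 CPM, and SMAD9, at 2.38 and 1.35 CPM, had log2 ratios of -0.79 and -0.82. Of 14 measured YAP-TEAD target genes 13 were within 1.5-fold, beside 7788 of 8179 over all genes. MYL9 was lower, at 78.2 and 46.1 CPM.

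**Figure D3:**
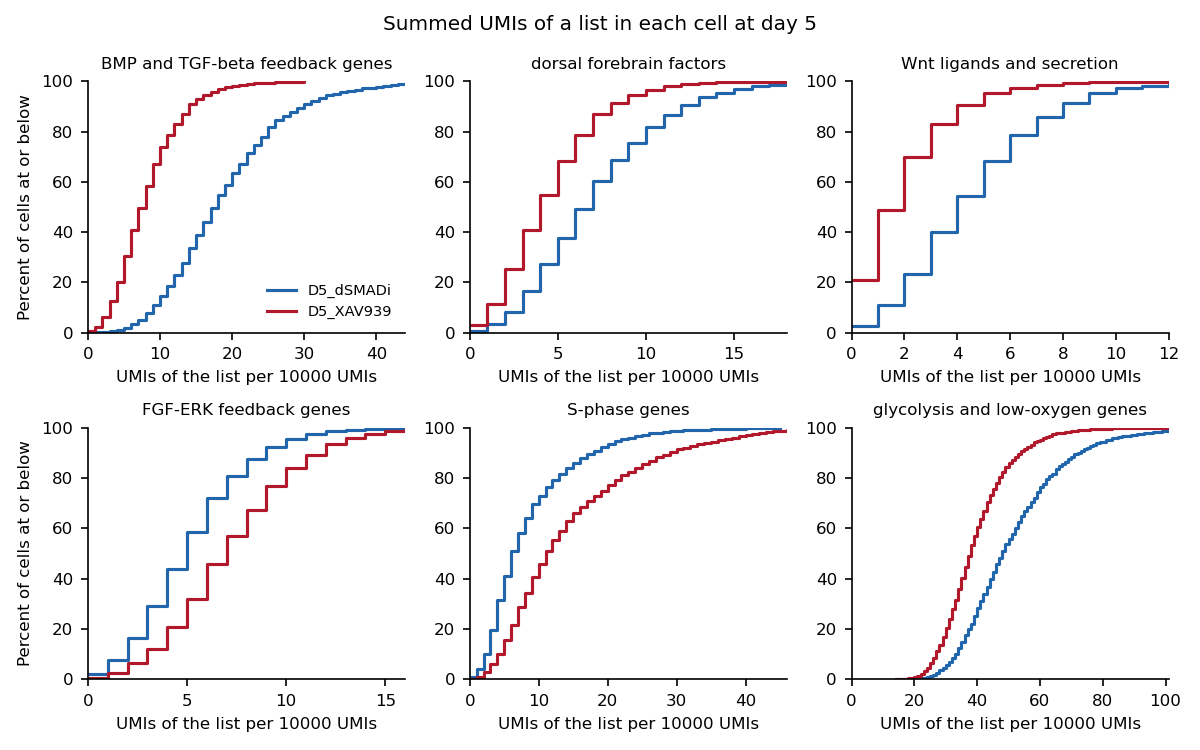
Percent of the 2423 D5_dSMADi cells (blue) and 2830 D5_XAV939 cells (red) with at most the number of UMIs on the horizontal axis, for the summed members of 6 lists after each cell was thinned to 10000 UMIs. The whole curve is displaced in each panel, with medians of 18 and 8 UMIs for BMP and TGF-β feedback genes, 7 and 4 for dorsal forebrain factors, 4 and 2 for Wnt ligands and secretion, 5 and 7 for FGF-ERK feedback genes, 6 and 11 for S-phase genes and 48 and 38 for glycolysis and low-oxygen genes. A sum can follow a single member. In D5_dSMADi WLS held 367 of the 456 CPM of its list and ID3 1066 of the 1879 CPM of the BMP list.

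S-phase genes were the list with the most members past the line. Of 17 measured members 12 were at least 1.5-fold higher with XAV939 and none lower, with a median log2 ratio of 0.72. UHRF1, which copies DNA methylation onto new strands and whose promoter is printed above, was at 11.6 CPM in D5_dSMADi and 27.6 CPM in D5_XAV939 (log2 ratio 1.26, 95% interval 1.15 to 1.37). The helicase subunit MCM4 was at 39.3 and 82.4 CPM, and MCM2, MCM3, MCM5 and MCM6 had log2 ratios of 0.76, 0.72, 0.81 and 0.77. The checkpoint adaptor CLSPN was at 63.6 and 122 CPM and the replication factor GINS2 at 56.1 and 101 CPM. Both cultures remained below D0, where the summed list was at 2296 CPM against 939 and 1510.5 CPM. The E2F letters stood in the windows of HELLS, MCM6, MCM7 and UHRF1, or 4 of 17 members with a window (23.5%), and in 1.20% of 27305 genes. MCM7 was within 1.5-fold, and G2 and M-phase genes (12.5%), anterior forebrain factors (10.0%) and reference genes (9.09%) also lay above the share of all genes.

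G2 and M-phase genes were less displaced, with MKI67 the 1 of 20 past 1.5-fold, at 137 and 209 CPM, and a median of 0.26. MKI67 was near the line, at a log2 ratio of 0.61, and within 1.5-fold in some alternatives of the processing. Cell cycle transcripts thus moved with XAV939 beside every other difference. When the cells of both libraries were divided into 3 equal ranges by their share of G2 and M-phase UMIs, the lowest range held 41.2% of D5_dSMADi and 26.6% of D5_XAV939 cells and the highest 28.6% and 37.3%. Of the 391 genes past 1.5-fold, 384 kept their direction in every range and 214 were past 1.5-fold in every range, 121 of 249 higher and 93 of 142 lower. These genes were called on the sums of the same cells, so keeping their direction within ranges is no further evidence. The S-phase median was 0.87, 0.76 and 0.39 from the lowest to the highest range. That of dorsal forebrain factors was -1.14, -0.97 and -0.72, and that of FGF-ERK feedback genes 0.51, 0.44 and 0.48. In the highest range 2 of 17 S-phase genes were past 1.5-fold. The ranges, chosen after the data were seen, were set by G2 and M-phase UMIs alone, and summed S-phase genes still differed within them, at 519.9 and 906 CPM in the lowest, 1148 and 1944 CPM in the middle and 1157 and 1444 CPM in the highest, so the part of the cell cycle in the other differences was not tested.

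Glycolysis and low-oxygen genes were lower in 5 of 16 measured members and higher in 1, with a median log2 ratio of -0.50. LDHA was at 572 CPM in D0, 297 CPM in D5_dSMADi and 62.9 CPM in D5_XAV939 (log2 ratio -2.24, 95% interval -2.28 to -2.20). EGLN3 (chr14:33924227-34462774, - strand) was at 24.4, 147 and 32.8 CPM, so the D5_XAV939 level lay near that of D0. PGK1, whose promoter is also printed above, was at 350.2, 411 and 199 CPM, and ENO2 at 40.8, 48.9 and 31.8 CPM. GAPDH, at 2586 and 2388 CPM at day 5, had a log2 ratio of -0.12, and the hexokinase HK2 went the other way, from 8.33 to 14.2 CPM. The letters ACGTG stood in the windows of 11 of 18 members with a window (61.1%), among them the 2 printed and also GAPDH and HK2, and in 21.7% of 27305 genes. Other lists also lay above all genes, such as midbrain, hindbrain and caudal factors (52.9%), roof plate and neural crest factors (45.5%) and the destruction complex list (44.4%). Stress and dissociation genes, scored because enzyme treatment can induce them, had a median of -0.00 and 1 of 12 members past 1.5-fold, JUN, at 5.23 and 10.1 CPM. Differences in density or oxygen between the cultures were not measured, and their part in the glycolysis result was not tested.

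The same search was made for the Wnt pathway. The TCF/LEF letters CTTTGA and CTTTGT were searched in genes with a window. They stood in 6 of 13 β-catenin targets and 6 of 13 dorsal forebrain factors (46.2% each), against 26.6% of all genes. None of these 13 targets reached 10 CPM at day 5. Of the dorsal factors with a window 5 did, 4 of them with the letters. Other lists had similar shares, such as mesoderm and endoderm factors (50.0%), neural progenitor genes (43.8%) and FGF-ERK feedback genes (42.9%), so the letters did not set these 2 lists apart. All these matches describe letters within 250 bases and not binding.

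Genes that the study names at days 5 and 10 were chosen on these libraries and are not independent evidence. Of 10 measured, 3 (PIK3R3, HES1 and SIX3) were past 1.5-fold higher and 5 (WLS, OTX2, PAX6, LHX5 and EMX2) lower. PIK3R3, a regulatory subunit of PI3 kinase, was at 145 CPM without and 248 CPM with XAV939. DLK1, a Notch-related ligand, was at 1137 and 1230.1 CPM at this day and WNT2B at 8.08 and 8.38 CPM.

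**Figure D4:**
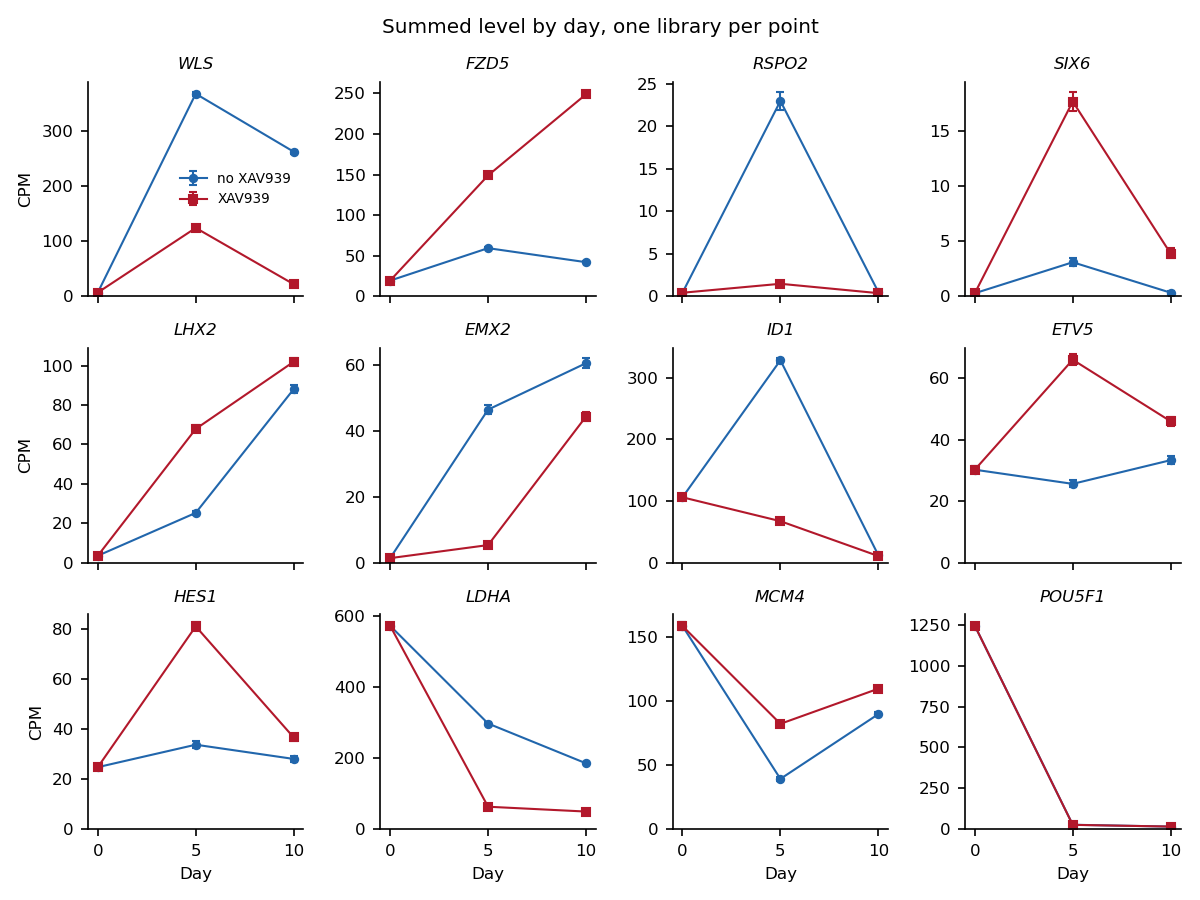
CPM of 12 genes at days 0, 5 and 10 without XAV939 (blue circles) and with it (red squares), 1 library per point, with 95% Poisson bars and the single D0 library drawn in both lines. RSPO2 and ID1 are highest in the dSMADi library of day 5 (23.0 and 328 CPM, against 0.425 and 106 CPM in D0), EMX2 is at 5.36 CPM with XAV939 at day 5 and 44.4 CPM at day 10, WLS and FZD5 are farther apart at day 10 than at day 5, and POU5F1 is at 26.5 and 25.9 CPM at day 5.

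The day 10 libraries, cultured for another 5 days under the same conditions, share no cells with the day 5 libraries but came from the same droplet run. Of 7993 genes with at least 10 CPM at both days, 250 (3.13%) were at least 1.5-fold higher and 209 (2.61%) lower with XAV939 at day 10. Of 222 genes higher at day 5 81 were higher at day 10 too, and of 126 lower 61 were lower too, while 3 and 5 were past the line in the other direction. Pearson's r of the 2 ratios was 0.58 over the 7993 genes, which are not independent replicates.

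Several kinds of course were seen among the day 5 genes. Some differences were larger at day 10, such as WLS (262 CPM without XAV939, log2 ratio -3.57), FZD5 (42.1 and 249 CPM, 2.56) and SIX3 (30.9 and 114 CPM, 1.88). Others were of similar size, among them LDHA (185 and 49.3 CPM, -1.90), EGLN3 (-1.72), WNT7B (-1.96) and IGFBP3 (2.16). Others were within 1.5-fold at day 10. ID1 was at 12.1 and 10.8 CPM at day 10, HES5 at 950.0 and 935 CPM, LHX2 at 88.1 and 102 CPM, and EMX2 at 60.6 and 44.4 CPM (log2 ratio -0.45, 95% interval -0.51 to -0.39). RSPO2 was at 0.507 and 0.378 CPM, near its D0 level, in both cultures.

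Genes that were low or little different at day 5 and apart at day 10 included WNT2B, at 110.1 CPM without and 16.1 CPM with XAV939 (log2 ratio -2.77). SFRP2 was at 1139.6 and 569 CPM and DLK1 at 1840.4 and 4284 CPM. VAX1, with 63 UMIs in the D5_XAV939 library, was at 0.176 and 16.8 CPM at day 10.

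**Figure D5:**
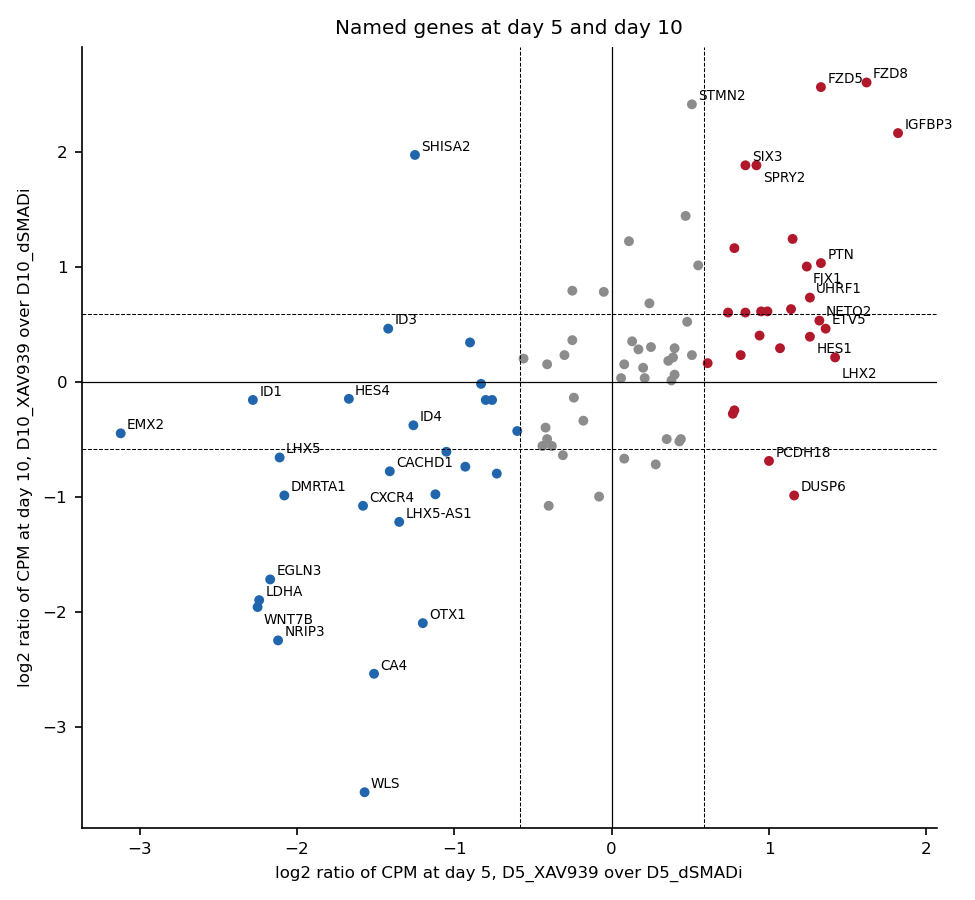
Log2 ratio of CPM with over without XAV939 at day 5 (horizontal) against day 10 (vertical) for 93 named genes with at least 10 CPM at both days; dashed lines mark 1.5-fold and colours give the day 5 side of the line. WLS lies low at -1.57 and -3.57 and FZD5 high at 1.33 and 2.56, ID1 and EMX2 lie within the lines on the day 10 axis (-0.16 and -0.45), and SHISA2 and DUSP6 lie in opposite corners.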

How the data were processed

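The authors processed the reads with Cell Ranger on GRCh38, called cells, separated the tagged conditions and deposited whole-number UMI counts per gene and barcode, without normalization or a filter on cells. The labels give Cell Ranger 3.1, the file headers 6.1.2. Whether counting used strand is not given in the sources used here. Each deposited matrix was tied to its condition by the tag that the labels give for it. Gene expression rows of cells with at least 10000 UMIs, 3000 genes and under 10% mitochondrial UMIs were summed per library and scaled to CPM (Python 3.11.15, numpy 2.4.6, scipy 1.17.1). With 1 library per condition no test, SE or p-value was made. Genes with at least 10 CPM in 1 library were assessed, and 1.5-fold was the line used for description. Named genes are the 12 with the largest and the 12 with the smallest ratio at 50 CPM or more, without Y-linked genes, XIST, mitochondrially encoded genes and genes with clone names, up to 4 members with the largest absolute ratio per list, the tankyrases and AXIN2, PPIG and the genes the study names. A few genes are not reported here. Further genes were named after their values were seen. The 25 gene lists, the comparison and these rules were chosen with earlier results of these data known. Shares of cells were taken after thinning each cell to 10000 UMIs, which left out no kept cell. Doublets were scored with Scrublet's method in scanpy 1.11.5, whose automatic threshold marked 7 D5_dSMADi and 0 D5_XAV939 cells and so did not work. A score over 0.25 marked 41 (1.69%) and 37 (1.31%) cells, which stayed in the main values. The scripts were tested on simulated data. Alternatives were other scalings (edgeR 4.0.16), limits on cells, genes and fold, and doublet removal.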

Additional observations from a re-analysis of the deposited data

Results flagged for a closer look

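Among genes with at least 10 CPM at both days, 8 were past 1.5-fold in opposite directions with XAV939 at day 5 and day 10. The difference between the days was not tested, since each value is 1 library per condition. SHISA2, which retains Frizzled and FGF receptors, had a log2 ratio of -1.25 at day 5 (95.1 CPM without and 40.0 CPM with XAV939) and 1.97 at day 10 (8.19 and 32.1 CPM), so the level without XAV939 was the one that differed most between the days. The calpain-related gene CAPN6 was at -0.89 and 1.83. The secreted IGFBP5 was at -0.79 (414 and 239.6 CPM) and 0.64 (267 and 417 CPM). The RNA-binding PCBP4 was at -0.64 and 0.95, and the transcript AL139246.5 at -1.50 and 0.64. In the other order, the ERK phosphatase DUSP6 was at 1.16 (11.7 and 26.2 CPM) and -0.99 (18.5 and 9.31 CPM), the protocadherin PCDH18 at 1.00 and -0.69, and the lipid phosphatase PLPP3 at 0.66 and -0.59. PLPP3 was near the line at both days, at 9.03 and 14.2 CPM at day 5 and 13.8 and 9.18 CPM at day 10.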

How the results depend on the processing

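No paired analysis was possible because each condition is 1 library, and for the same reason no replicate could be left out. The counts of 249 higher and 142 lower genes depended on the limits on level and fold. Without a minimum CPM (over 3 UMIs in 1 library, 21917 genes) they were 2573 and 2064, at 50 CPM or more (3097 genes) 58 and 58, at 2-fold 50 and 45, and at 1 CPM or more (13471 genes, chosen after the data were seen) 723 and 503, where 48 of 319 list members were lower in place of 29 of 229. A scaling by median ratios gave 206 and 155 and TMM 201 and 158, with the higher share of calls at 57.1% and 56.0% in place of 63.7%, and leaving ribosomal protein and mitochondrial genes out of the total gave 268 and 197 (57.6%). Other cell filters, thinning and doublet removal gave 248 to 288 and 139 to 157. Scalings shifted all log2 ratios by at most 0.04. Of 856 alternative values for 107 named genes none turned direction, and 4 genes crossed 1.5-fold, among them TGIF1 (-0.59 to -0.60), MKI67 (0.57 to 0.58) and DLX2 (-0.55 in thinned cells). Of 400 list counts 392 stayed within 1.5 times, and at 1 CPM or more 14 of 50 moved further. With 1 library per condition, depth sets the counting error and does not show the variation between cultures.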

Other observations

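The genes in this part were chosen after their values were seen and carry no test. LRAT, the enzyme that stores vitamin A as retinyl esters, had the largest ratio of all genes assessed, at 0.909 CPM in D5_dSMADi and 13.8 CPM in D5_XAV939 (log2 ratio 3.92, 95% interval 3.58 to 4.28). D0 was at 13.3 CPM, so the level with XAV939 was close to that of the undifferentiated cells. SELENOP, a selenium carrier, was at 13.0 CPM in D0 and 5.34 and 20.7 CPM at day 5, and so higher with XAV939 than in D0.

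Further genes of replication outside the S-phase list were also higher. FAM111B was at 5.63 CPM without and 23.0 CPM with XAV939, CDCA7 at 6.44 and 20.3 CPM, and the nucleotide enzyme DUT at 68.8 and 129 CPM. The cell cycle regulators E2F1 and CCNE1 were at 5.37 and 10.5 CPM and at 11.5 and 20.3 CPM, and E2F7 had a log2 ratio of 1.03. All 6 were higher in D0 than in D5_dSMADi.

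Single genes known to respond to low oxygen or to glucose differed in both directions. The collagen hydroxylase subunit P4HA1 was at 184 CPM in D5_dSMADi and 72.7 CPM in D5_XAV939 against 37.9 CPM in D0, and FAM162A at 100.1 and 46.0 CPM. ARRDC4 and TXNIP, arrestin-related genes induced by glucose, were at 41.8 and 12.2 CPM and at 195 and 100.2 CPM. The lipid droplet protein PLIN2 was at 90.6 and 46.8 CPM. DDIT4, which low oxygen is also known to induce, was at 156 and 229 CPM, and the hexokinase HK2 was 1.71-fold higher.

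Transcripts of secreted or surface proteins differed in both directions. PTN, FRZB and IGFBP3, given above, were higher, and so was ITGB5, at 13.8 CPM without and 35.9 CPM with XAV939. Several others were lower. GPC3, a proteoglycan that binds Wnt proteins, was at 1079 CPM without and 604 CPM with XAV939 at day 5 and at 1524 and 424 CPM at day 10. IGFBP2 was at 1151 and 634 CPM, in the direction opposite to IGFBP3, and the protease inhibitor TIMP3 at 44.4 and 13.9 CPM. FRAT2 and TLE1, an activator and a corepressor of the Wnt pathway, had log2 ratios of -1.01 and -0.97.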
